A study of Mus musculus with 6 samples.

Results

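The NF-κB transcription factors and genes that NF-κB induces were followed in haploid mouse embryonic stem cells with and without p53. Most of the induced genes restrain NF-κB or protect cells from death. The 10 genes were found by symbol in a table of 54532 genes: Nfkb1, Nfkb2, Rela, Relb, Nfkbia, Nfkbiz, Tnfaip3, Birc2, Birc3 and Cflar. There were 3 libraries of p53-deficient haploid cells and 3 of wild-type (WT) haploid cells, all of strain 129SV. Sample titles call the first group P53ki, the genotype field gives it as lacking p53, and the series design calls it a knockout. Haploid embryonic stem cells hold only 1 copy of each chromosome and drift back to diploidy in culture, and the study's stated subject is apoptosis during that drift. How p53 was removed, whether a genotype is more than 1 line or clone, and whether the replicates were separate cultures are not stated. The p-values therefore measure only how these libraries vary, which may be technical variation, and a difference between lines or clones cannot be told apart from an effect of genotype.

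NF-κB is a family of dimers built from REL proteins. In resting cells the dimers are held in the cytoplasm by inhibitors of the IκB family. Receptors for tumour necrosis factor, interleukin-1 and microbial products activate the IκB kinase (IKK), which marks the inhibitor for destruction and frees the dimer to enter the nucleus. Among the genes that are then induced are the inhibitor itself and other brakes, so the signal is self-limiting, and others that block caspases and keep the cell alive. Nfkb1 and Nfkb2 encode precursors that are processed to the subunits p50 and p52, Rela and Relb encode activating subunits, Nfkbia encodes the inhibitor IκBα, and Tnfaip3 encodes the ubiquitin-editing enzyme A20. The pathway is known to be weak in mouse embryonic stem cells and strong in fibroblasts and immune cells.

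Promoters were available from RefSeq (build GRCm38.p6) for 7 of the 10 genes, and the 250 bases before each annotated start were searched on both strands for sites of the kind NF-κB binds. The motifs were GGAANTTCC and the κB consensus, which is GGG, a purine, any base, A or T, a pair of pyrimidines and CC. These can overlap, so 1 stretch may match both. The promoters of the feedback inhibitors Nfkbia (chr12:55492648-55492897, minus strand) and Tnfaip3 (chr10:19015411-19015660, minus strand), of the factor gene Nfkb2 (chr19:46304487-46304736, plus strand) and of the survival gene Birc3 (chr9:7873171-7873420, minus strand) are shown to set genes with and without a match beside each other. Each is written 5′ to 3′ on the strand of its gene, and capitals mark the matched stretches.
Nfkbia: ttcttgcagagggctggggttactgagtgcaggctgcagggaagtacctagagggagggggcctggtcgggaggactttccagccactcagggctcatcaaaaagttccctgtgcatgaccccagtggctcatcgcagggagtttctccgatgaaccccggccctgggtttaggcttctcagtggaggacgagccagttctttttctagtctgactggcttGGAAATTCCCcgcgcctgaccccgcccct
Tnfaip3: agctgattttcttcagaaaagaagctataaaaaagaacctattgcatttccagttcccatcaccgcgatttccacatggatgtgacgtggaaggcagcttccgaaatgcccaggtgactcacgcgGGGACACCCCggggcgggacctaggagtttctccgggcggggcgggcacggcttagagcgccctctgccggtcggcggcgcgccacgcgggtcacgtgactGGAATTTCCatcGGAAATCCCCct
Nfkb2: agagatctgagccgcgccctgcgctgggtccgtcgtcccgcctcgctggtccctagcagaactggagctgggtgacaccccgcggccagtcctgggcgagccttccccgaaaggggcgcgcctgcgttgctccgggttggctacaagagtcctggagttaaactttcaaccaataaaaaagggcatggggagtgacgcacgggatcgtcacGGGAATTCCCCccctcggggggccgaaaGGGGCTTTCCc
Birc3: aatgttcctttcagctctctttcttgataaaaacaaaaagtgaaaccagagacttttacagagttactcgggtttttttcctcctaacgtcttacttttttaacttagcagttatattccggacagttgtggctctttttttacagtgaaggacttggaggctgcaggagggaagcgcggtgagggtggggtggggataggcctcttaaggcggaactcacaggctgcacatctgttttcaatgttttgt
The Nfkbia stretch begins 29 bases before the start and matches the consensus on the opposite strand and GGAANTTCC within the same letters. GGAANTTCC is in 0.813% of 32851 promoter windows of this length, and the consensus is in 3.9% of windows and in 4.46% of genes with a window. Tnfaip3 holds GGAANTTCC 24 bases before the RefSeq start shown and consensus matches at 125 and 12 bases. The window of its other annotated start holds no match. The start shown lies within the gene as deposited (19000910 to 19015657), as does almost all of its window. Nfkb2 holds overlapping consensus matches at 39 and 38 bases and another at 11 bases, and windows of its other annotated starts hold consensus matches at 225 and 236 bases. No window of Rela, Birc2, Birc3 or Cflar matched either motif, which says only that these letters are not in these windows.

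Total reads in listed genes, rebuilt from the deposited FPKM values (fragments scaled to gene length and library size), were 11536412 to 21218976 in the p53-deficient libraries and 17065841 to 20331905 in the WT libraries. Trp53, which encodes p53, had 9.71, 9.71 and 9.98 FPKM in p53-deficient and 64.5, 69.8 and 69.6 FPKM in WT libraries, so the labels and the targeted gene point the same way. All 12 markers of embryonic stem cells were present, 6 of them called higher, 5 lower and 1 not passing, or 4 higher and 6 lower after scaling by the median log2 ratio. Their sums of 2871 to 2978 FPKM in p53-deficient and 3605 to 3677 FPKM in WT libraries rest on Dppa5a, which averaged 1075 FPKM in p53-deficient and 2007 FPKM in WT cells. The other 11 markers summed to 1821 to 1863 FPKM in p53-deficient and 1626 to 1638 FPKM in WT libraries. That difference in turn rests on Utf1, which averaged 303 FPKM in p53-deficient and 61.6 FPKM in WT cells. Markers of fibroblasts, the usual feeder cells, were present as well, and all 27 of 30 that were abundant enough to test were lower. Of these 27, 2 were under the test's minimum of 0.5 FPKM in p53-deficient cells and entered through their WT level, which favours a difference. All 30 markers summed to 386 to 412 FPKM in p53-deficient and 1720 to 1726 FPKM in WT libraries. No marker was at 0 in every library of a group. Reads of the Y-linked genes Ddx3y, Eif2s3y, Kdm5d and Uty numbered 103 in p53-deficient and 1161 in WT libraries, a depth-adjusted ratio of 0.1 (95% exact binomial interval 0.0811 to 0.123, counting error only). Of 12 leukocyte markers 9 were too low to test, among them Ptprc at 0.0196 FPKM in p53-deficient and 0.0165 FPKM in WT cells. The other 3 were lower, 1 of them tested only through its WT level. All 12 summed to 10.8 to 11.8 FPKM in p53-deficient and 19.0 to 19.8 FPKM in WT libraries. Most of each sum was Cd68, at 8.57 FPKM in p53-deficient and 12.1 FPKM in WT cells. In such bulk libraries fewer cells of a type and less RNA per cell cannot be told apart.

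Of the 4 factor genes, Nfkb1, Nfkb2 and Rela did not pass the test and Relb was slightly lower in p53-deficient cells. Of the other 6 genes, 5 were lower by 2.10-fold to 4.81-fold in mean FPKM in p53-deficient cells, and Birc2 did not pass. Groups were compared on log2(FPKM + 1) with limma across the 15144 genes of mean FPKM at least 0.5, and a gene was called at a Benjamini-Hochberg adjusted p under 0.05. All 10 genes were above that minimum in each group. In all, 6 of the 10 genes were called, a share close to the 66.5% of all tested genes. All 6 were lower and 0 were higher, where 31.3% of all tested genes were called lower and 35.3% higher. The same 6 genes had p53-deficient values entirely below the WT values, against 33.7% of all tested genes, and 71.4% of all tested genes had no overlap in either direction. A fall of at least 2-fold on the log2(FPKM + 1) scale was called in 3 of the 10, Nfkbiz, Cflar and Nfkbia, against 6.3% of all tested genes. The median log2 fold change of the 10 was -0.52, beside 0.03 over all tested genes.

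**Figure D1:**
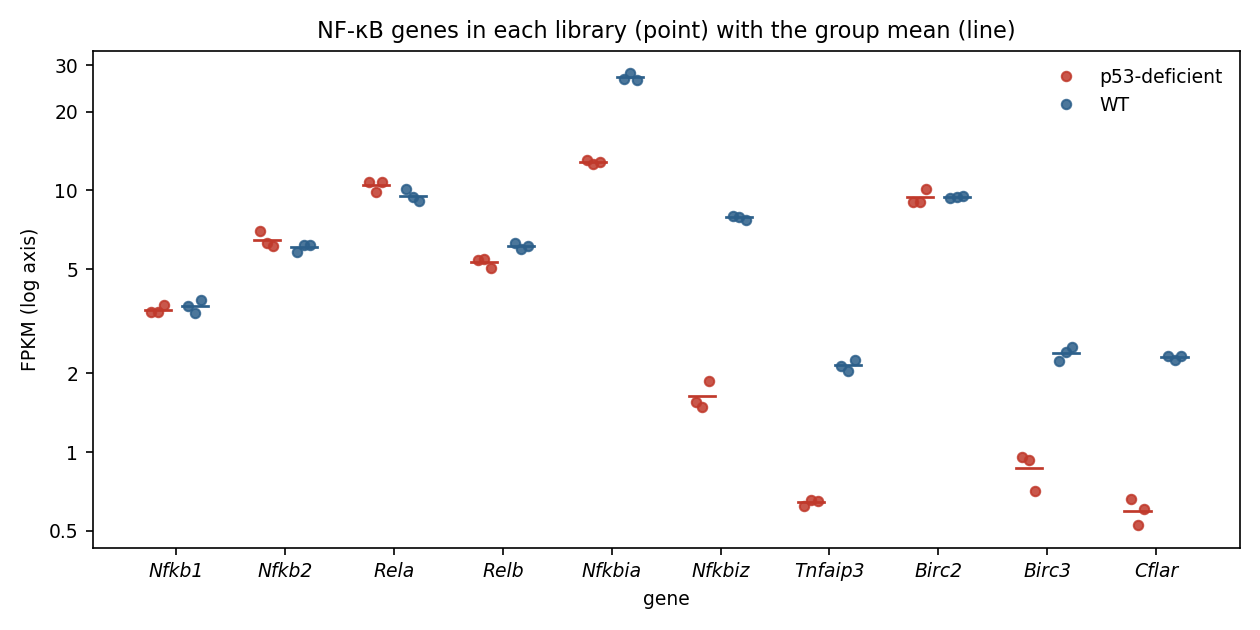
FPKM of the 10 NF-κB genes in each library (points) with the group mean (line), p53-deficient left of WT, on a log axis. The groups overlap for Nfkb1, Nfkb2, Rela and Birc2, and the p53-deficient points lie below the WT points for the other 6 genes.

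Among the factors, Rela, which encodes the main activating subunit p65 (gene positions are on mm10 as deposited; chromosome 19, 5637483 to 5648130, plus strand), had 10.8, 9.88 and 10.8 FPKM in p53-deficient and 10.1, 9.41 and 9.08 FPKM in WT libraries. The lowest p53-deficient library lay within the WT range. The log2 fold change of 0.12 had a 95% interval of 0.00016 to 0.25 and a limma adjusted p of 0.0715. Rela was called higher without p53-deficient replicate 2 (limma adjusted p = 0.0315) and without WT replicate 1 (limma adjusted p = 0.0374), and over all alternatives the limma adjusted p ran from 0.0315 to 0.679. Nfkb1, the precursor of p50 (chromosome 3, 135584655 to 135691547, minus strand), had 3.43, 3.42 and 3.66 FPKM in p53-deficient and 3.62, 3.42 and 3.80 FPKM in WT libraries. These ranges overlap almost wholly, and the log2 fold change of -0.03 (95% interval -0.16 to 0.09) did not pass (limma adjusted p = 0.584).

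Nfkb2, the precursor of p52 in the slower, noncanonical arm of the pathway (chromosome 19, 46304737 to 46312090, plus strand), had 7.01, 6.29 and 6.14 FPKM in p53-deficient and 5.79, 6.20 and 6.16 FPKM in WT libraries. The highest value was p53-deficient replicate 1, and the groups overlapped (log2 fold change 0.08, 95% interval -0.05 to 0.22, limma adjusted p = 0.222). It shares 299 identical bases with the transcripts of Psd, which was listed at 0.431 FPKM in p53-deficient and 0.296 FPKM in WT cells. The usual partner of p52 is encoded by Relb, which (chromosome 7, 19606217 to 19629438, minus strand) had 5.43, 5.46 and 5.06 FPKM in p53-deficient and 6.29, 5.95 and 6.11 FPKM in WT libraries. Every p53-deficient library was below every WT library, and Relb fell by 0.17 on the log2 scale (SE 0.04, limma adjusted p = 0.0104). The change is small: mean FPKM was 0.869 times the WT mean, and 32.9% of all tested genes had a lower log2 fold change. The fall of Relb was 0.27 after scaling by the median log2 ratio. After quantile normalization it was 0.12, with a limma adjusted p of 0.0457.

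Nfkbia was the most abundant of the 10 in both groups. It lies on chromosome 12 (55489410 to 55492647, minus strand), and its promoter is the one above with a match 29 bases before the start. It had 13.1, 12.6 and 12.9 FPKM in p53-deficient and 26.7, 28.0 and 26.3 FPKM in WT libraries. The groups lay far apart relative to their spread, with means of 12.9 ± 0.267 FPKM in p53-deficient and 27.0 ± 0.889 FPKM in WT libraries (SD, n = 3 each). The p53-deficient mean was 2.10-fold lower (log2 fold change -1.01, SE 0.03, limma adjusted p = 1.04e-06). The level of Nfkbia relative to Rela, its main binding partner, was 1.22, 1.27 and 1.19 in p53-deficient and 2.64, 2.97 and 2.89 in WT libraries on the FPKM scale. That ratio was chosen after the values were seen and was not tested.

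Nfkbiz encodes IκBζ, a nuclear IκB protein that acts with p50 as a coactivator of a subset of inflammatory genes (chromosome 16, 55811375 to 55838899, minus strand). It changed most of the 10, with 1.55, 1.48 and 1.88 FPKM in p53-deficient and 8.01, 7.89 and 7.73 FPKM in WT libraries. The highest p53-deficient library was far below the lowest WT library, and the means of 1.64 ± 0.209 FPKM in p53-deficient and 7.88 ± 0.138 FPKM in WT libraries (SD, n = 3 each) differed 4.81-fold (log2 fold change -1.75, SE 0.06, limma adjusted p = 1.64e-06). Of all tested genes 2.01% had a lower log2 fold change. The protein-coding genes closest to its pattern over the 6 libraries were Ephx1, Cdh11 and Kazn, with Pearson r of log2(FPKM + 1) of 0.9999, 0.9998 and 0.9998. Ephx1 had 3.24, 3.06 and 4.10 FPKM in p53-deficient and 36.4, 37.1 and 34.3 FPKM in WT libraries. Cdh11 had 0.891, 0.884 and 1.15 FPKM in p53-deficient and 6.41, 6.10 and 6.05 FPKM in WT libraries. Kazn had 2.39, 2.36 and 2.66 FPKM in p53-deficient and 7.69, 7.72 and 7.46 FPKM in WT libraries. With 6 points that fall into 2 groups such values of r are common, and 2929 of 12238 protein-coding genes had r of at least 0.95.

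Tnfaip3, the A20 gene (chromosome 10, 19000910 to 19015657, minus strand), had 0.625, 0.659 and 0.651 FPKM in p53-deficient and 2.13, 2.05 and 2.25 FPKM in WT libraries. The groups did not overlap, and the means of 0.645 ± 0.0177 FPKM in p53-deficient and 2.14 ± 0.101 FPKM in WT libraries (SD, n = 3 each) were 3.33-fold apart (log2 fold change -0.93, SE 0.06, limma adjusted p = 1.72e-05). At these levels the added 1 FPKM shrinks a fold change: with voom weights on the rebuilt reads the log2 fold change was -1.76. The values rest on 233 reads in p53-deficient and 893 reads in WT libraries, with 55 reads in the shallowest library.

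Birc2 and Birc3 encode cIAP1 and cIAP2, ubiquitin ligases that join the tumour necrosis factor receptor complex, keep RIPK1 from triggering death and hold the noncanonical arm in check. The genes are neighbours on chromosome 9, Birc2 at 7818227 to 7837064 and Birc3 at 7848699 to 7873186, both on the minus strand. Birc2 had 9.06, 9.03 and 10.1 FPKM in p53-deficient and 9.32, 9.40 and 9.52 FPKM in WT libraries, so that p53-deficient libraries lay on either side of the WT range (log2 fold change -0.0025, 95% interval -0.12 to 0.11, limma adjusted p = 0.969). Birc3 had 0.958, 0.933 and 0.713 FPKM in p53-deficient and 2.23, 2.42 and 2.53 FPKM in WT libraries. Its groups did not overlap, and the means of 0.868 ± 0.135 FPKM in p53-deficient and 2.39 ± 0.151 FPKM in WT libraries (SD, n = 3 each) were 2.76-fold apart (log2 fold change -0.86, SE 0.08, limma adjusted p = 8.47e-05, or -1.50 with voom weights). The longest match that BLAST returned between the paralogs was 297 bases at 86.9% identity, and the search could miss less similar stretches. A processed pseudogene, Gm7019, matches 369 bases of Birc3 at 99.2% and was listed at 0.385 FPKM in p53-deficient and 0.416 FPKM in WT cells. How reads that fit both were assigned is not stated.

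Cflar encodes cFLIP, a relative of caspase-8 that blocks its activation at death receptors (chromosome 1, 58711508 to 58758884, plus strand). It had 0.660, 0.526 and 0.604 FPKM in p53-deficient and 2.32, 2.26 and 2.34 FPKM in WT libraries. All p53-deficient libraries were below 1 FPKM and all WT libraries above 2 FPKM, with means of 0.597 ± 0.0675 FPKM in p53-deficient and 2.31 ± 0.0423 FPKM in WT libraries (SD, n = 3 each), 3.86-fold apart (log2 fold change -1.05, SE 0.06, limma adjusted p = 1.25e-05, or -1.94 with voom weights). The depth-adjusted read ratio was 0.261 (95% exact binomial interval 0.233 to 0.291, counting error only), from 388 reads in p53-deficient and 1682 reads in WT libraries. The processed pseudogene Gm9845 is identical to 598 bases of Cflar and was listed at 0.186 FPKM in p53-deficient and 0.395 FPKM in WT cells.

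**Figure D2:**
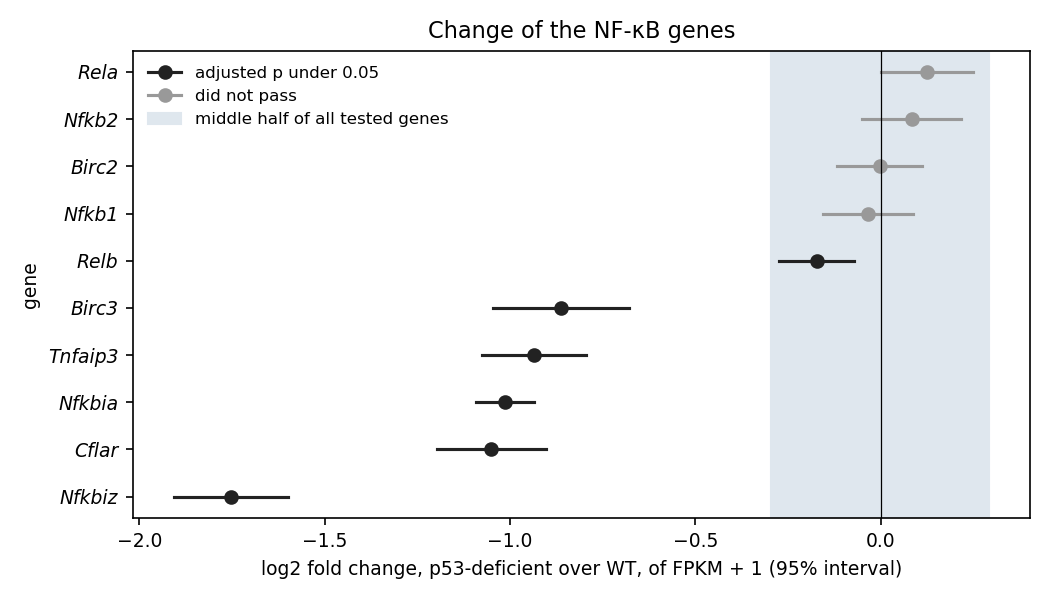
Log2 fold change of FPKM + 1, p53-deficient over WT, with its 95% interval for each of the 10 genes, and the middle range of all tested genes shaded. Nfkbiz lies at -1.75, Cflar, Nfkbia, Tnfaip3 and Birc3 between -1.05 and -0.86, Relb at -0.17, and the other 4 have intervals that reach or nearly reach 0.

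In the libraries in which these 6 genes were lower, summed fibroblast markers were 4.32-fold lower and Y-linked reads fell to a ratio of 0.1. Their part in the falls of Relb, Nfkbia, Nfkbiz, Tnfaip3, Birc3 and Cflar was not tested. The stem cell markers moved in both directions, as given above.

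Levels within a group can be compared because FPKM is per length, though the deposited lengths of 1610 bases for Nfkbia to 12669 bases for Cflar cover all listed exons of a gene. In p53-deficient cells the order of mean FPKM was Nfkbia, Rela, Birc2, Nfkb2, Relb, Nfkb1, Nfkbiz, Birc3, Tnfaip3 and Cflar. Neighbours whose library values overlapped there were Rela with Birc2 and Tnfaip3 with Cflar. In WT cells the order was Nfkbia, Rela, Birc2, Nfkbiz, Relb, Nfkb2, Nfkb1, Birc3, Cflar and Tnfaip3. Overlapping neighbours in WT cells were Rela with Birc2, Relb with Nfkb2, and Birc3 with Cflar. Nfkbiz thus stood below the 4 factor genes in p53-deficient cells and above Relb, Nfkb2 and Nfkb1 in WT cells.

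Whether paralogs changed unequally was tested on their ratio within each library, for 3 pairs, with a two-sided exact permutation test that cannot go below p = 0.1 with 3 libraries against 3. The Birc3 to Birc2 ratio of FPKM was 0.106, 0.103 and 0.0703 in p53-deficient and 0.239, 0.257 and 0.266 in WT libraries, with no overlap (log2 difference -1.47, exact p = 0.1, adjusted p = 0.15). With 1 FPKM added to each gene that difference was -0.86. The Relb to Rela ratio was 0.504, 0.553 and 0.469 in p53-deficient and 0.622, 0.633 and 0.673 in WT libraries, also with no overlap (log2 difference -0.34, exact p = 0.1, adjusted p = 0.15). The Nfkb2 to Nfkb1 ratio was 2.04, 1.84 and 1.68 in p53-deficient and 1.60, 1.82 and 1.62 in WT libraries, where the groups overlapped (log2 difference 0.14, exact p = 0.2, adjusted p = 0.2). The first 2 ratios thus reached the smallest p this design allows, which is above 0.05.

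**Figure D3:**
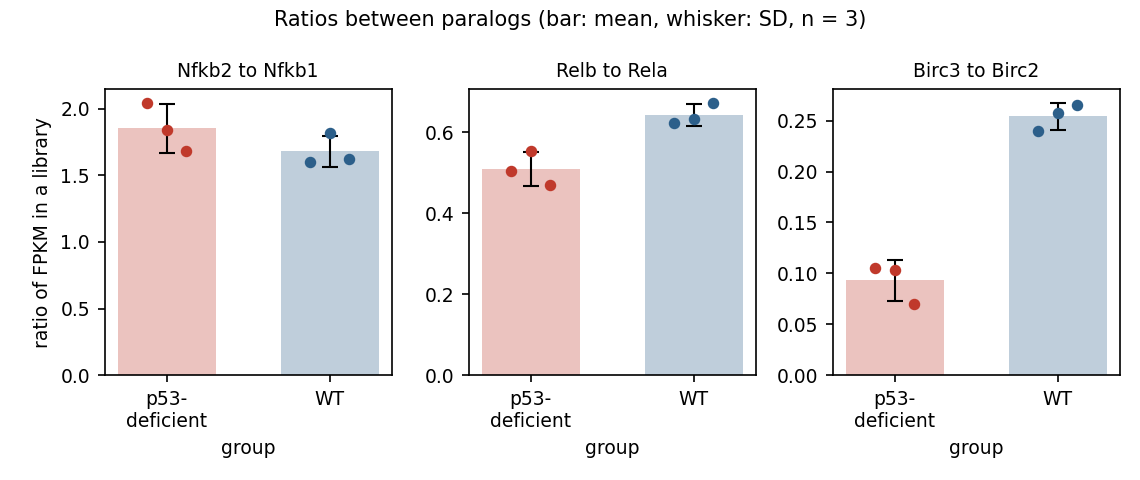
Ratio of FPKM between paralogs in each library (points), with the mean (bar) and SD (whisker, n = 3), p53-deficient left of WT. Birc3 to Birc2 averaged 0.0931 in p53-deficient and 0.254 in WT libraries, and only the Nfkb2 to Nfkb1 panel, of the 3 shown, has overlapping groups.

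The other genes of the pathway were taken from 8 lists of 124 genes, of which 100 were tested. Of these, 54 (54%) were lower and 28 (28%) higher, where 31.3% of all tested genes were lower and 35.3% higher, and the median log2 fold change was -0.21. The target list alone held 27 of the 54 lower genes and 3 of the 28 higher ones. All lists, that one among them, were chosen with earlier results of these data known. The share called in either direction was 66.5% over all tested genes, against 58.3% of the kinase list, 76.5% of the adaptors, 80% of the other REL and IκB genes, 76.9% of the brakes and 66.7% each of the ligands and the other inhibitors of apoptosis. It was 88.9% of the receptors and 100% of the targets, but 2 tested receptors, 2 kinases, 1 ligand and 6 targets were under 0.5 FPKM in 1 group and entered the test through their level in the other, which favours a difference. Of 12 tested genes for IKK and the kinases above it, 5 fell, 2 rose and 5 missed the threshold, or 7 lower and 1 higher after scaling by the median log2 ratio. Map3k7, which encodes the IKK-activating kinase TAK1, fell by 0.27 on the log2 scale to 13.2 ± 0.388 FPKM in p53-deficient cells, against 16.1 ± 0.335 FPKM in WT cells (SD, n = 3 each). Ikbke and Map3k8, kinase genes at 0.480 and 0.699 FPKM in p53-deficient and 1.40 and 1.54 FPKM in WT cells, fell by 0.69 and 0.58. Tab3, an adaptor of TAK1, rose by 0.31, and Ikbkb, the catalytic IKKβ gene, rose by 0.18, a call that was lost after scaling by the median log2 ratio (limma adjusted p = 0.256, against 0.0271). Tab2, at 14.6 FPKM in p53-deficient and 14.9 FPKM in WT cells, did not pass, but was called lower after that scaling (limma adjusted p = 0.0248).

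Among 17 tested adaptor and ubiquitin ligase genes, 7 rose, 6 fell and 4 missed the threshold, a split that became 4 higher and 7 lower after scaling by the median log2 ratio. Rnf31, the catalytic part of the linear ubiquitin ligase, rose by 0.47 to 10.3 ± 0.712 FPKM in p53-deficient cells, against 7.12 ± 0.490 FPKM in WT cells. Myd88 and Irak4, which couple interleukin-1 and Toll-like receptors to the pathway, rose by 0.37 and 0.34. Casp8, the caspase that cFLIP restrains, fell by 1.10 to 1.20 ± 0.108 FPKM in p53-deficient cells, against 3.71 ± 0.0830 FPKM in WT cells. Ticam1 and Malt1, adaptors of Toll-like and antigen receptors, fell by 0.53 and 0.35. Sharpin, another subunit of the linear ubiquitin ligase, had 6.57 FPKM in p53-deficient and 6.68 FPKM in WT cells and did not pass.

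Of 10 tested genes for further REL and IκB proteins and their partners, 6 rose, 2 fell and 2 missed the threshold, or 4 higher and 2 lower after scaling by the median log2 ratio. Bcl3, a nuclear IκB protein that works with p50 and p52, rose by 0.59 to 24.9 ± 0.757 FPKM in p53-deficient cells, against 16.2 ± 0.753 FPKM in WT cells. Nfkbid, which encodes the nuclear protein IκBNS, rose by 0.75 to 2.20 ± 0.414 FPKM in p53-deficient cells, against 0.889 ± 0.131 FPKM in WT cells. Nkrf, a repressor of NF-κB targets, rose by 0.80, while Nfkbil1 and Nkiras2 fell by 0.30 and 0.29. Nkiras1 had 2.06 FPKM in p53-deficient and 1.97 FPKM in WT cells and did not pass, but was called higher after quantile normalization (limma adjusted p = 0.0446). Differences between these genes and Nfkbia were not tested.

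Of 13 tested deubiquitinases and other brakes, 5 rose, 5 fell and 3 missed the threshold, with 3 higher and 5 lower after scaling by the median log2 ratio. Tax1bp1, a cofactor of A20, rose by 0.41 to 17.8 ± 0.304 FPKM in p53-deficient cells, against 13.1 ± 0.451 FPKM in WT cells. Otulin, which removes linear ubiquitin chains, rose by 0.37, and Usp18, best known as a brake on interferon signalling, by 0.30. Rnf11 and Tnip1, which act with A20, fell by 0.43 and 0.40, and Tank fell by 0.47. Itch, at 8.64 FPKM in p53-deficient and 7.97 FPKM in WT cells, did not pass.

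Of 16 receptor genes 9 were tested, 8 of them lower and 1 not passing, and the list's summed level was 32.5 to 32.7 FPKM in p53-deficient and 80.7 to 82.8 FPKM in WT libraries. Eda2r, a receptor gene known as a p53 target, had 0.387 ± 0.0610 FPKM in p53-deficient and 23.5 ± 0.341 FPKM in WT cells (log2 fold change -4.14). Its difference in FPKM was the largest of the listed receptors, and so was its part in the change of the summed level. Ltbr, the lymphotoxin receptor that feeds the noncanonical arm, fell by 1.29 to 3.08 ± 0.0884 FPKM in p53-deficient cells, against 8.98 ± 0.547 FPKM in WT cells. Il1r1, the interleukin-1 receptor, fell by 1.22 to 0.579 ± 0.141 FPKM in p53-deficient cells, against 2.67 ± 0.204 FPKM in WT cells. Tnfrsf1b had 2.57 FPKM in p53-deficient and 2.68 FPKM in WT cells and did not pass. Of 11 ligand genes only 3 were tested. Tnfsf11, the RANK ligand, rose by 0.91 to 1.76 ± 0.0634 FPKM in p53-deficient cells, against 0.468 ± 0.130 FPKM in WT cells, Ltb fell by 0.54, and Tnfsf12, which did not pass, was called lower after scaling by the median log2 ratio (limma adjusted p = 0.0378).

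Of 33 listed inflammatory and other targets of NF-κB 30 were tested, 27 of them lower and 3 higher, with a median log2 fold change of -1.52. Ptx3, a secreted pattern recognition protein, had 1.35 ± 0.162 FPKM in p53-deficient and 40.5 ± 2.48 FPKM in WT cells (log2 fold change -4.14). The neutrophil chemokine genes Cxcl5 and Cxcl1 had 1.93 ± 0.176 and 1.83 ± 0.301 FPKM in p53-deficient cells, against 42.9 ± 0.764 and 33.8 ± 0.640 FPKM in WT cells. Irf1, Bcl2l1 and Icam1 were the targets that rose, by 0.72, 0.36 and 0.32, with Icam1 at 33.2 ± 0.318 FPKM in p53-deficient and 26.5 ± 1.08 FPKM in WT cells. Summed over the list, the level was 178 to 190 FPKM in p53-deficient and 750 to 777 FPKM in WT libraries, a 4.18-fold difference. The summed fibroblast markers differed 4.32-fold in the same libraries. Such sums weigh the most abundant genes most. Median log2 fold changes of the tested genes were -1.52 for the targets and -2.23 for the fibroblast markers. The part of fibroblast RNA in the receptor and target gene falls was not tested.

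Of 9 other inhibitors of apoptosis and antagonists of them, 6 were tested, 4 of them higher and 2 not passing. Xaf1, an antagonist of the caspase inhibitor XIAP, had 35.6 ± 1.54 FPKM in p53-deficient and 3.57 ± 0.222 FPKM in WT cells, 9.95-fold higher (log2 fold change 3.00, SE 0.05, limma adjusted p = 6.93e-08). Birc5, which encodes the mitotic protein survivin, rose by 0.27, and Diablo, a mitochondrial antagonist of these inhibitors, by 0.32. Xiap itself had 11.7, 12.9 and 11.6 FPKM in p53-deficient and 11.4, 11.2 and 11.9 FPKM in WT libraries, which overlap, and did not pass.

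**Figure D4:**
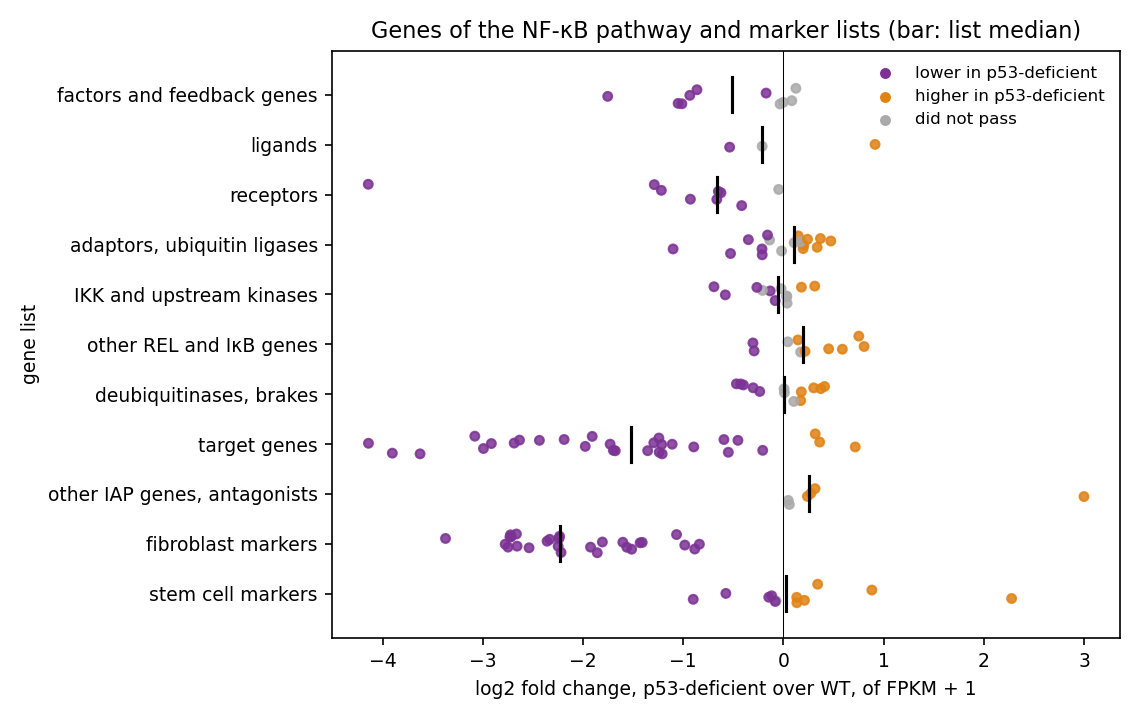
Log2 fold change of FPKM + 1, p53-deficient over WT, of every tested gene (points) among the 10 genes, the 8 pathway lists and 2 marker lists, coloured by call, with the list median (bar). Target genes (median -1.52) and receptors (-0.66) lie mostly left of 0 as do fibroblast markers (-2.23), while adaptors, kinases, brakes and stem cell markers have medians between -0.05 and 0.11.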

How the data were processed

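Poly(A)-selected RNA of 6 libraries was sequenced after preparation with the NEBNext Ultra kit, per the labels' protocols, which do not state that strand was kept. The authors deposited FPKM values per gene and library. The build was mm10, and HISAT2 2.0.5 and featureCounts 1.5.0-p3 are named, per the submitters' processing notes, with no roles given. Gene lengths were deposited beside the values (unit other than expression). Each value times the gene's length was a whole number of steps, for 100% of values in every library (tolerance 0.01 reads), so reads were rebuilt. Library depth was 11536412 to 21218976 such reads, and 54 reads was the lowest count behind a value of the 10 genes. Intervals on reads cover counting error only.

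Differences were tested two-sided by limma 3.58.1 (R 4.3.3) on log2(FPKM + 1) with a variance trend, for genes of mean FPKM at least 0.5, adjusted over 15144 genes. A fold change on that scale understates the change of low genes. The 10 genes and all lists, the target list among them, were chosen with earlier results of these data known. Apart from the 10 genes, up to 3 called genes in each direction and the most abundant gene that did not pass were named per list, and the 3 genes most like the one of largest change. Marker genes and the ratio of Nfkbia to Rela were named apart from this rule. All 124 listed pathway symbols and the 58 marker symbols were matched, 1 through a synonym. Of genes found in GENCODE vM21, 98.3% had the same coordinates there. Exons of the 10 genes did not overlap those of a gene of mean FPKM at least 0.5, and copies were sought with BLAST 2.17.0 over at least 250 bases at 95% identity.

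Results were recomputed with 0.1 in place of 1 as pseudocount, without the filter or with it at 5 FPKM, with 2 scalings (median log2 ratio and quantile), with no variance trend, with voom weights on rebuilt reads, with the replicate number as a block, at a threshold of 0.01, and leaving out each library. The fit was tested on simulated reads. Figures were drawn with matplotlib 3.10.9.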

Additional observations from a re-analysis of the deposited data

How the results depend on the processing

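The 6 calls among the 10 genes held in direction under each alternative that tested them, except that Relb did not pass an adjusted p under 0.01 (5 called). At a mean FPKM of at least 5 only 5 of the 10 genes were tested, and 2 were called, with 43 pathway genes and 5944 genes of all called, against 82 and 10074. With each library left out in turn, 6 to 7 of the 10 genes, 72 to 81 pathway genes and 9193 to 9746 of all genes were called, the seventh gene being Rela. Log2 fold changes that turned sign were all near 0 and uncalled: Nfkb2 was -0.016 after scaling by the median log2 ratio, Nfkb1 0.058 after quantile normalization, and Birc2 0.021, 0.023 and 0.0049 without p53-deficient replicate 1, p53-deficient replicate 2 and WT replicate 3, in a range of -0.052 to 0.023 over left-out libraries. The cause was not tested. Scaling by the median log2 ratio moved the median of all genes from 0.03 to -0.07 and the split of all calls from 5341 higher and 4733 lower to 4034 higher and 5846 lower. Deviations of log2(FPKM + 1) from the group mean correlated at -0.0328 to 0.0142 between same-numbered libraries of the groups. Differently numbered libraries gave -0.0359 to 0.0294. These values show no pairing by number, but with 3 libraries per group they cannot exclude it. With the replicate block 6 of the 10 genes, 77 pathway genes and 9766 genes of all were called. The paralog ratios, whose log2 differences do not change, each had an exact sign-flip p of 0.25. That is the smallest p this test can give with 3 libraries per group, so it cannot show whether blocking weakens the differences. Left-out libraries gave Birc3 to Birc2 differences of -1.57 to -1.28, Relb to Rela -0.40 to -0.28 and Nfkb2 to Nfkb1 0.07 to 0.21. Depth limits Tnfaip3, Birc3 and Cflar most, with 54 to 77 reads in the shallowest library.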

Other observations

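Several upstream genes of the pathway were too low to test. Tnf, the founding ligand, had a mean of 0.136 FPKM in p53-deficient and 0.0236 FPKM in WT cells. Il1a and Il1b, the interleukin-1 genes, had 0.128 and 0.0933 FPKM in p53-deficient cells, against 0.593 and 0.440 FPKM in WT cells. Tlr4, the receptor for bacterial endotoxin, had 0.0529 FPKM in p53-deficient and 0.720 FPKM in WT cells, and Traf1, itself a classic NF-κB target, had 0.0616 FPKM in p53-deficient and 0.0968 FPKM in WT cells. Rel, the gene of the lymphoid subunit c-Rel, was tested and did not pass, with 1.41 FPKM in p53-deficient and 1.15 FPKM in WT cells (limma adjusted p = 0.144). These genes were chosen after their values were seen.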
